A study of Mus musculus with 24 samples.

Results

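The heat shock genes described here encode chaperones that work outside the lumen of the endoplasmic reticulum, in the cytosol, the nucleus and the mitochondria. The list holds 10 genes: the inducible HSP70 pair Hspa1a and Hspa1b, the HSP110 gene Hsph1, the HSP40 gene Dnajb1, the small heat shock gene Hspb1, the cytosolic HSP90 genes Hsp90aa1 and Hsp90ab1, the constitutive HSP70 gene Hspa8, and the mitochondrial chaperonin genes Hspd1 and Hspe1. All probes annotated to these symbols were taken, whatever their signal. Of the 10 genes, 9 had an annotated probe, among 19057 genes with a probe on the array; Hsp90ab1 was not analysed here. These 9 genes carried 18 probes, of which 14 were detected on at least 6 arrays and were kept. The other 4 probes, the dimmest of Hspa1a, Hspa1b, Hspb1 and Hsp90aa1, were detected on none of the 24 arrays.

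The study profiled whole pituitary glands of mice aged 8 weeks on 24 Illumina expression arrays, 1 RNA sample per array. There were 4 groups of 6: wild-type males, Cga-deficient males, wild-type females and Cga-deficient females, the wild types being littermates. All were on a mixed C57Bl6j 129S2SvPas background, and no group received a treatment that the labels record. Cga encodes the alpha subunit shared by thyrotropin and the gonadotropins, so mice without it lack the intact hormones and are known to become hypothyroid and hypogonadal while the thyrotrope cells of the pituitary enlarge and multiply. The labels do not describe the deleted sequence. A whole gland mixes several hormone cell types with vessel, immune, supporting and posterior lobe cells, so a lower signal from fewer cells of a type and from less RNA per cell cannot be told apart.

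Heat shock proteins keep other proteins folded. HSP70 binds exposed hydrophobic stretches with the help of HSP40 (J-domain) partners, HSP110 acts as its nucleotide exchange factor, HSP90 completes the folding of client proteins such as steroid receptors and kinases, small heat shock proteins hold unfolded proteins in a soluble state, and HSP60 with HSP10 forms the folding chamber of the mitochondrial matrix. When unfolded protein accumulates in the cytosol, heat shock factor 1 binds repeats of GAA and its complement TTC in the promoters of these genes and raises their transcription. Unfolded protein in the endoplasmic reticulum is read by a separate set of sensors that act on the lumenal chaperones.

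Upstream sequences are shown for the 2 gene pairs whose shared or near-identical promoters bear on the comparisons that follow. RefSeq (GRCm38.p6) gave a window of 250 bases before the start for 7 of the 10 genes. Hspa1a and Hspa1b lie 10120 bases apart on chromosome 17 and are transcribed from the minus strand; the windows are chr17:34972157-34972406 and chr17:34959239-34959488. Hspd1 and Hspe1 lie head to head on chromosome 1, and the 215 bases between their annotated start sites, chr1:55087933-55088147, are printed on the plus strand, that of Hspe1. Capitals mark alternating repeats of GAA and TTC with a gap of 2 bases.
Hspa1a upstream: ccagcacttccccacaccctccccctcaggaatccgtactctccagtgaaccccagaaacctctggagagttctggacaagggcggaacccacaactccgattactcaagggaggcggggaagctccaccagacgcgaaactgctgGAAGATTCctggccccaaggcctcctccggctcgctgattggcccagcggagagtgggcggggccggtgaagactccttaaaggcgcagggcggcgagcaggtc
Hspa1b upstream: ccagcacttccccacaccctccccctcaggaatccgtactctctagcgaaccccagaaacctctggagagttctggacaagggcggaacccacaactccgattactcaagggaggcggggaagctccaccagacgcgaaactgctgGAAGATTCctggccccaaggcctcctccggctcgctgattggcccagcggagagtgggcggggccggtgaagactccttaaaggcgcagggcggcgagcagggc
Hspd1 to Hspe1: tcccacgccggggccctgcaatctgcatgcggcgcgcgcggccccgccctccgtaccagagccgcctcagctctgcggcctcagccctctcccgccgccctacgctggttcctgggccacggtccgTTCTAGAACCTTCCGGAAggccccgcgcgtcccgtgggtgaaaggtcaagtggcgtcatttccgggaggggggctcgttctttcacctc
The 2 HSP70 windows differed at 3 of 250 bases, an identity of 98.8%, and each held 1 match of GAANNTTC, which begins 104 bases before the start. Across 32851 RefSeq windows of this length, 6.69% held GAANNTTC and 7.17% held TTCNNGAA, both of which read alike on either strand. The stretch between Hspd1 and Hspe1 held 2 overlapping matches of the longer motif, GAANNTTCNNGAA or its reverse complement TTCNNGAANNTTC, which 0.466% of all windows held. The repeats begin 89 bases before the Hspe1 start and, read on the other strand, 144 bases before the Hspd1 start. A longer annotated Hspd1 transcript begins 96 bases beyond the Hspe1 start. Hspb1 held 2 matches of GAANNTTC, Hsph1 held 1 of TTCNNGAA, and the windows of Dnajb1 held neither. These are matches of letters, and binding was not measured.

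Values are log2 intensities after background correction and quantile normalization, and each is followed over the 6 arrays of a group by its lowest, median and highest value. A gene is called changed where the adjusted p of a limma fit across all 12027 genes measured was under 0.05 (Benjamini-Hochberg); the brightest kept probe stands for a gene, and differences are mutant minus wild type with their SE. The label check held: Cga ranged from 14.68 to 14.91 in the wild types and from 12.22 to 13.02 in the mutants. Raw background per array ran from 77.4 to 101.2 intensity units, with 3 arrays of every group above the median and 3 below it. In every group the 3 of lower background were those with the lowest sample numbers in the titles, so raw background and sample order cannot be told apart in the values given by background below. With this split as a block no member's call changed. No 2 arrays held identical values. The share of probes detected was lowest in wild-type males, at 39.7 to 43.1%, stood at 43.9 to 46.4% in their female counterparts, and reached 47.1 to 50.8% in the mutants. The labels do not say whether each sample came from a separate animal, so p-values measure the spread between these samples. The pituitary markers Gh, Prl, Pomc, Cga, Tshb, Lhb and Pitx1 were detected on every array, and Pou1f1 was not measured.

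In mutant males 6 of the 9 measured heat shock genes changed, at a background of 51.5% of all genes called (25% higher and 26.5% lower). Hsp90aa1, Hspa8 and Hspe1 were higher and Hsph1, Hspb1 and Hspd1 were lower. In mutant females 3 of 9 changed, against 48.3% of all genes (22.8% higher and 25.5% lower): Hspa1a and Hsp90aa1 were higher and Hspb1 was lower. Among the members called, the fold ran from 1.15 to 1.46 in males and from 1.41 to 2.13 in females. The median difference over the 9 genes was 0.14 in males and 0.09 in females on the log2 scale, against -0.01 and -0.03 over all genes. Hspb1 and Hsp90aa1 were the members called in both sexes. Averaged over the sexes, 6 of 9 members were called, 3 in each direction, against 60.2% of all genes (28.1% higher and 32.2% lower).

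**Figure D1:**
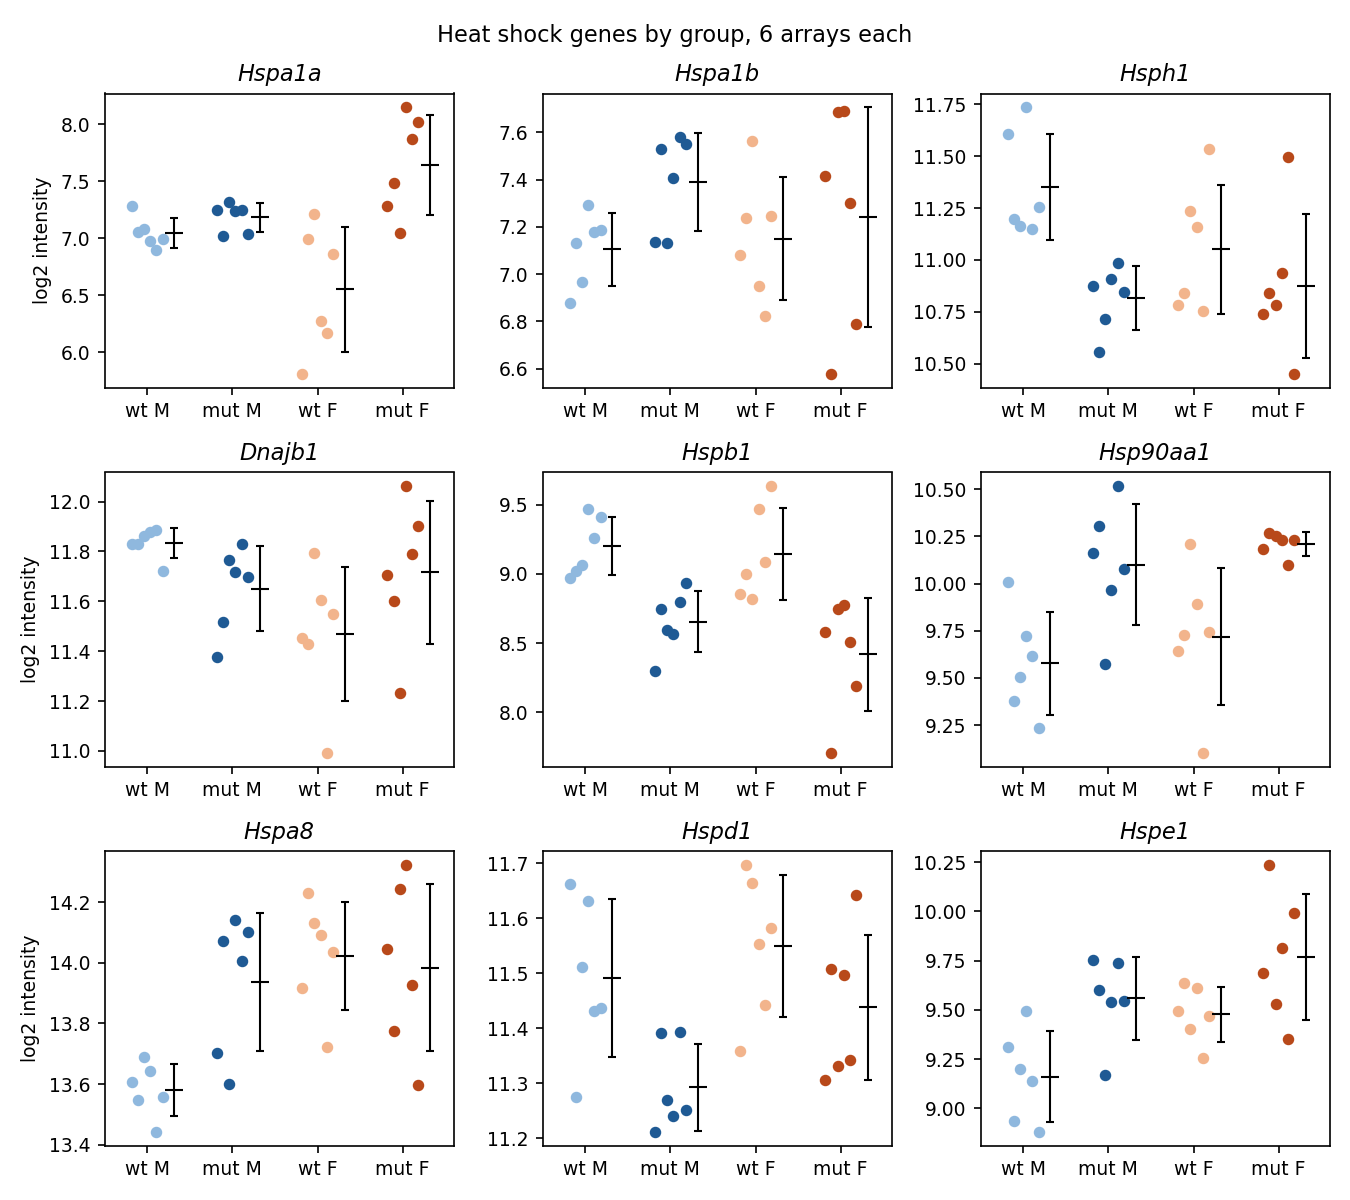
Log2 intensity of the 9 measured heat shock genes in each of the 24 arrays, by group (wild-type and mutant males, wild-type and mutant females; points are arrays, bars the mean ± SD of 6). Hspb1 was lower in every mutant array than in every wild-type array of the same sex, whereas Hspa1a separated the genotypes mainly in females, with overlapping arrays.

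Hspa1a and Hspa1b encode the same stress-inducible HSP70 protein almost to the residue and are the genes most often used as a readout of the heat shock response. Hspa1a measured 5.81, 6.57 and 7.21 (lowest, median, highest) in wild-type females and 7.05, 7.68 and 8.15 in mutant females. The mutant females were thus high and the wild-type females low, with overlapping ranges, and the difference was 1.09 ± 0.19, or 2.13-fold (adjusted p = 4.2e-05, limma). The SE of the fit rests on 1 spread shared by the 4 groups. The SD of Hspa1a was 0.55 and 0.44 in wild-type and mutant females against 0.13 and 0.12 in the males. The p-value therefore does not measure the female spread alone. In males Hspa1a measured 6.90, 7.02 and 7.28 in wild types and 7.02, 7.24 and 7.31 in mutants, a difference of 0.14 ± 0.19 (adjusted p = 0.57, 95% interval -0.26 to 0.53). The mutant effect on Hspa1a was larger in females than in males by 0.95 ± 0.27 (adjusted p = 0.021 for the interaction of genotype and sex). It was the 1 of 9 members with such an interaction, against 13.6% of all genes, 7.25% with a higher effect in females. Wild-type females were the group with the lowest mean, 6.55 ± 0.55 (SD, n = 6), and wild-type males stood at 7.05 ± 0.13; that sex difference of -0.50 ± 0.19 was not called (adjusted p = 0.057).

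The arrays of lower and of higher raw background gave different sizes for the female Hspa1a difference. It was 1.58 over the 6 female arrays of higher background (adjusted p = 1.12e-05) and 0.60 over the 6 of lower background (adjusted p = 0.12), and the interaction was 1.36 (adjusted p = 0.0093) and 0.55 (adjusted p = 0.56). A second Hspa1a probe was dim, being detected on no wild-type male array, 5 mutant male arrays, 1 wild-type female array and 6 mutant female arrays. Its log2 means were 5.02 and 5.32 in males and 5.16 and 5.43 in females, with adjusted p over all kept probes of 0.038 and 0.062. The mutant male mean lay below the dimmest signal detected on the wild-type male arrays, 5.63, so no fold is given. With the mean of both probes, which mixes in values near background, the interaction of Hspa1a was 0.46 (adjusted p = 0.084). The share of all probes detected was also higher in the mutants, as given above, and its part in the dim probe's values was not tested.

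Hspa1b, the neighbour with the near-identical upstream window, did not follow Hspa1a. It measured 6.88, 7.16 and 7.29 in wild-type males and 7.13, 7.47 and 7.58 in mutant males, a difference of 0.28 ± 0.16 (adjusted p = 0.14, 95% interval -0.05 to 0.61). In females it measured 6.82, 7.16 and 7.57 in wild types and 6.58, 7.36 and 7.69 in mutants, a difference of 0.09 ± 0.16 (adjusted p = 0.66, 95% interval -0.24 to 0.42). All 4 groups overlapped, and the mutant females spread over the widest range. The male difference was called when the 2 male groups were fitted alone (adjusted p = 0.033). The coding sequences of the pair are near copies, and whether a probe reads 1 gene or both was not tested.

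Hsph1, the HSP110 exchange factor that works with HSP70 in dissolving aggregates, was lower in mutant males. It measured 11.15, 11.23 and 11.74 in wild-type males and 10.56, 10.86 and 10.99 in mutant males. No mutant male array reached a wild-type male one, and the difference was -0.54 ± 0.15, 1.45-fold (adjusted p = 0.0043). Female arrays overlapped, at 10.75, 11.001 and 11.53 in wild types and 10.45, 10.81 and 11.49 in mutants (-0.18 ± 0.15, adjusted p = 0.35), and the sexes did not differ detectably in this effect (0.36 ± 0.21, adjusted p = 0.27).

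Dnajb1, the HSP40 partner that stimulates the HSP70 ATPase and is induced with it, was not called for genotype in either sex. It measured 11.72, 11.85 and 11.89 in wild-type males and 11.38, 11.71 and 11.83 in mutant males (-0.18 ± 0.12, adjusted p = 0.21). In females it measured 10.99, 11.50 and 11.79 in wild types and 11.23, 11.75 and 12.06 in mutants (0.25 ± 0.12, adjusted p = 0.10). The signs were opposite, and the test of that difference gave 0.43 ± 0.17 with an adjusted p of 0.094. In the female arrays of higher raw background the difference was 0.54 (adjusted p = 0.020), and in those of lower background it was -0.05 (adjusted p = 0.86).

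Hspb1 encodes HSP27, a small heat shock protein that holds unfolded proteins and binds actin filaments. It was lower in the mutants of both sexes. Male arrays read 8.97, 9.16 and 9.47 in wild types and 8.30, 8.67 and 8.93 in mutants (-0.54 ± 0.16, 1.46-fold, adjusted p = 0.0074). Female arrays read 8.82, 9.04 and 9.64 in wild types and 7.71, 8.55 and 8.78 in mutants (-0.72 ± 0.16, 1.65-fold, adjusted p = 0.00072). Within each sex no mutant array reached a wild-type one, as held for 30.7% of all genes in males and 23.6% in females. Of the 9 members, Hspb1 and Hsph1 separated the genotypes in this way in males, and Hspb1 in females. The Hspb1 effect did not differ detectably between the sexes (-0.18 ± 0.23, adjusted p = 0.64). In the arrays of lower background the male and female differences were -0.47 and -0.55 (adjusted p = 0.12 and 0.077), and in those of higher background -0.62 and -0.90 (adjusted p = 0.016 and 0.0017).

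Hsp90aa1, the inducible cytosolic HSP90, was higher in mutants of both sexes by nearly the same amount. Male arrays read 9.23, 9.56 and 10.01 in wild types and 9.57, 10.12 and 10.52 in mutants (0.52 ± 0.15, 1.44-fold, adjusted p = 0.0057). Female arrays read 9.10, 9.74 and 10.21 in wild types and 10.10, 10.23 and 10.27 in mutants (0.49 ± 0.15, 1.41-fold, adjusted p = 0.0094). The ranges overlapped in both sexes, and the 6 mutant females lay close together at an SD of 0.06. A second, dimmer probe gave 0.53 ± 0.19 in males (adjusted p over all kept probes 0.022) and 0.51 ± 0.19 in females (adjusted p = 0.030). It was detected on 3 of 6 wild-type male arrays and on every array of the other groups. Over the arrays of lower background the difference of the brighter probe was 0.38 in each sex (adjusted p = 0.19 and 0.21), and over those of higher background 0.66 and 0.61 (adjusted p = 0.025 and 0.040).

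Hspa8 encodes HSC70, the constitutive HSP70 that also uncoats clathrin vesicles. It was read by 3 kept probes, of which the brightest lay at 13.44 to 14.32, near the top of the array's range, where the brightest probe of each array stood at 15.20. In males this probe read 13.44, 13.58 and 13.69 in wild types and 13.60, 14.04 and 14.14 in mutants (0.36 ± 0.12, 1.28-fold, adjusted p = 0.013). In females it read 13.72, 14.06 and 14.23 in wild types and 13.60, 13.98 and 14.32 in mutants (-0.04 ± 0.12, adjusted p = 0.82). Wild-type males were thus the low group, and the interaction of -0.39 ± 0.17 was not called (adjusted p = 0.11). The second probe and the dimmest gave male differences of 0.15 ± 0.08 (adjusted p = 0.13) and -0.02 ± 0.15 (adjusted p = 0.92), so the probes did not share the call, and with the mean of the 3 probes the male difference was 0.16 (adjusted p = 0.15).

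Hspd1 and Hspe1 encode HSP60 and HSP10 of the mitochondrial chaperonin and share the stretch between their start sites printed above. Hspe1 was higher in mutant males, at 8.88, 9.17 and 9.50 in wild types and 9.17, 9.57 and 9.76 in mutants (0.40 ± 0.13, 1.32-fold, adjusted p = 0.013). In females it read 9.26, 9.48 and 9.64 in wild types and 9.35, 9.75 and 10.24 in mutants (0.29 ± 0.13, adjusted p = 0.069). Averaged over the sexes the Hspe1 difference was 0.34 ± 0.09 (adjusted p = 0.0023). Arrays of the genotypes overlapped in both sexes.

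The brighter Hspd1 probe gave differences of the other sign. It read 11.28, 11.47 and 11.66 in wild-type males and 11.21, 11.26 and 11.39 in mutant males (-0.20 ± 0.08, 1.15-fold, adjusted p = 0.043). In females it read 11.36, 11.57 and 11.70 in wild types and 11.31, 11.42 and 11.64 in mutants (-0.11 ± 0.08, adjusted p = 0.27). The male call was lost without any 1 of 7 male arrays (adjusted p up to 0.10), with arrays scaled to their 75th percentile (-0.09, adjusted p = 0.40) and with the mean of the 2 Hspd1 probes (-0.05, adjusted p = 0.62). The second probe gave 0.10 ± 0.12 in males (adjusted p over all kept probes 0.48) and -0.29 ± 0.12 in females (adjusted p = 0.046). Neither probe had a called interaction of genotype and sex (adjusted p = 0.65 for the brighter, 0.11 over all kept probes for the second). The difference between the Hspd1 and Hspe1 effects was not tested.

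**Figure D2:**
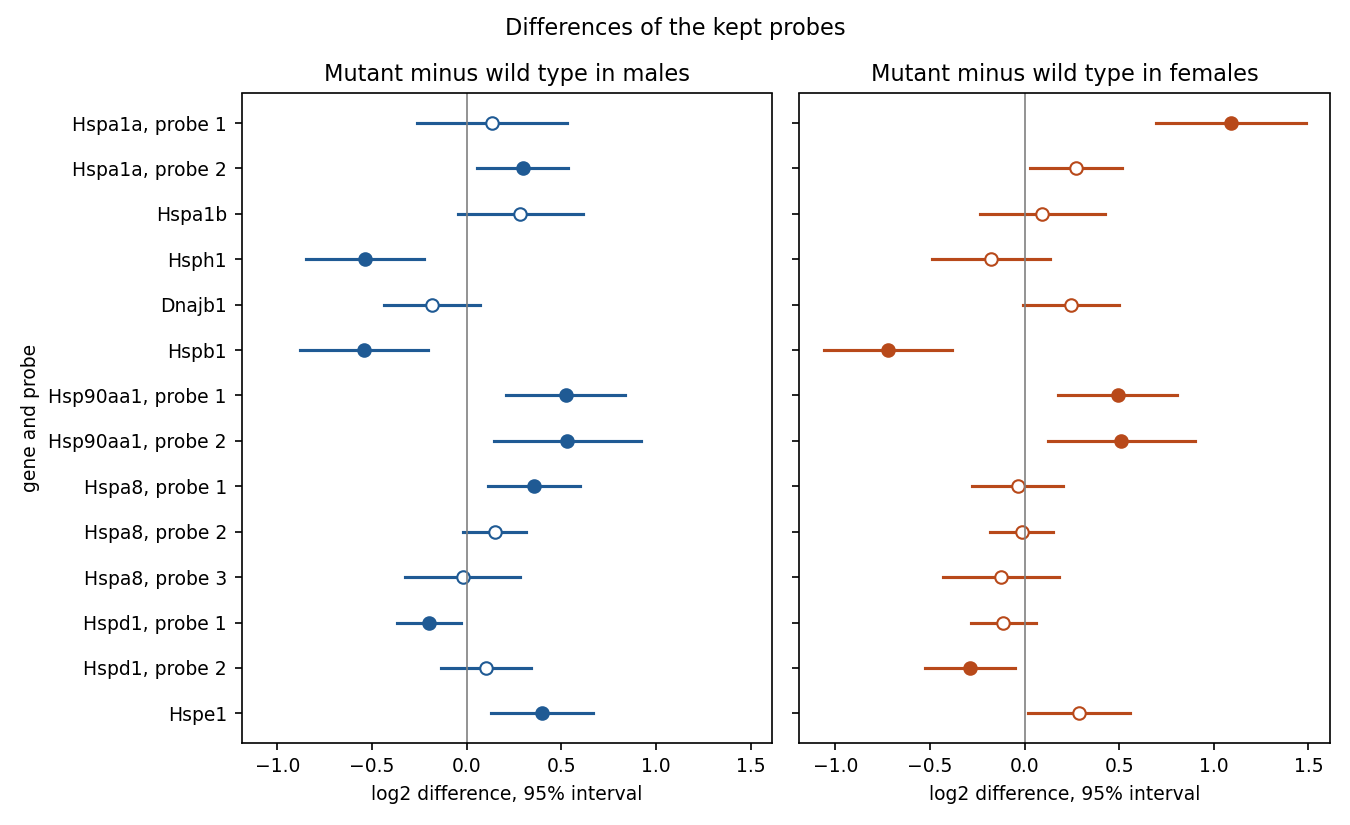
Mutant minus wild-type log2 difference of each of the 14 kept heat shock probes in males and in females, with its 95% interval; filled points passed an adjusted p under 0.05 over all kept probes. The 2 Hsp90aa1 probes lie near 0.5 in both sexes, while the probes of Hspa1a, Hspa8 and Hspd1 lie farther apart; the second Hspa1a probe was near background in the wild types.

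Counted by probe, 8 of the 14 kept heat shock probes were called in males, against 49.9% of all kept probes, and 5 in females, against 44.8%. The 8 include the dim second Hspa1a probe, kept mostly through mutant arrays and detected on no wild-type male array. That call rests on values near background. The interaction was called for 1 probe, the brighter one of Hspa1a, against 15% of all kept probes.

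Between the sexes, 2 of 9 members differed among wild types, against 27.3% of all genes (12.5% higher and 14.8% lower in females). Hspa8 was higher in wild-type females than in wild-type males by 0.44 ± 0.12, 1.36-fold (adjusted p = 0.0065), with no overlap between their arrays, as for 11.1% of all genes. Its second probe showed the same sign, 0.25 ± 0.08 (adjusted p over all kept probes 0.022), and the dimmest gave 0.29 ± 0.15 (adjusted p = 0.15). Dnajb1 was lower in wild-type females by 0.36 on the log2 scale, written as a difference of -0.36 ± 0.12, 1.29-fold (adjusted p = 0.028). That call was lost without the fifth wild-type female array (adjusted p = 0.087). The second Hspd1 probe was higher in wild-type females by 0.42 ± 0.12 (adjusted p over all kept probes 0.0088), while the brighter Hspd1 probe gave 0.06 ± 0.08 (adjusted p = 0.64). Both measured red blood cell markers were also lower in wild-type females, Alas2 by a difference of -1.18 ± 0.42 (adjusted p = 0.038) and Hba-a1 by -0.83 ± 0.30 (adjusted p = 0.040). The Alas2 interaction of genotype and sex was 1.66 ± 0.59 (adjusted p = 0.062), and the part of red blood cells in the Hspa1a and Dnajb1 values was not tested.

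Among mutants no member differed between the sexes at an adjusted p under 0.05, against 0.0665% of all genes, in the limma fit. In this comparison of mutants 1 member, Hspa1a, had an unadjusted p under 0.05, against 748 of all 12027 genes. The sex differences of the 9 genes there ran from -0.24 for Hspb1 to 0.46 for Hspa1a. In the order of the 4 group means, every neighbouring pair of groups overlapped in its arrays for each of the 9 genes. Hspa1a ran from wild-type females through wild-type males and mutant males to mutant females, and Hspb1 ran from mutant females through mutant males to wild-type females and wild-type males.

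The spread between arrays of 1 group differed among the members. The within-group SD of Hspa1a was 0.36, larger than that of 93.7% of all genes measured, and those of Hspb1, Hspa1b, Hsp90aa1 and Hsph1 were 0.30, 0.30, 0.28 and 0.28, larger than 81.3 to 87.2% of genes. Hspe1, at 0.23, exceeded 65.7% of genes, Dnajb1, at 0.22, exceeded 56.5%, Hspa8, at 0.20, stood at the median gene, and the brighter Hspd1 probe, at 0.12, varied less than most, its SD being larger than that of 7.15% of genes. The spread of Hspa1a was unequal among groups: its SD was 0.13 and 0.12 in wild-type and mutant males against 0.55 and 0.44 in wild-type and mutant females. The difference in spread was not tested.

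Whether members varied together between arrays of a group was asked with deviations from the group means over the 24 arrays, in 36 pairs, by permutation within groups (100000 draws, two-sided). After adjustment over the pairs 5 correlations passed, each above 0. Of the 36 coefficients 80.6% were above 0, and 19.4% reached 0.56, the lowest that passed; among all pairs of the 12027 genes these shares were 50.3% and 1.7%, given as a description. Hspa1b and Hspa8 gave the highest, Pearson r = 0.77 (permutation p = 0.00033, adjusted 0.0068) and Spearman rho = 0.72 (permutation p = 0.00091, adjusted 0.019). Without the 2 arrays farthest from the median of Hspa1b it was 0.72, and within the 12 arrays of lower and the 12 of higher raw background it was 0.78 and 0.86. The mitochondrial pair Hspd1 and Hspe1 gave r = 0.60 (permutation p = 0.0042, adjusted 0.031) and rho = 0.66 (permutation p = 0.0016, adjusted 0.019), 0.55 without 2 arrays, and 0.49 and 0.91 within the arrays of lower and higher background.

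The other 3 pairs linked cytosolic and mitochondrial chaperones. Hsp90aa1 and Hspe1 gave r = 0.57 (permutation p = 0.00038, adjusted 0.0068) and rho = 0.61 (permutation p = 0.0015, adjusted 0.019), 0.43 without 2 arrays, and 0.45 and 0.70 within the arrays of lower and higher background. Hsp90aa1 and Hspd1 gave r = 0.56 (permutation p = 0.0040, adjusted 0.031) and rho = 0.59 (permutation p = 0.0041, adjusted 0.037), 0.61 without 2 arrays, and 0.58 and 0.65 within those sets of arrays. Hspa1a and Hspd1 gave r = 0.61 (permutation p = 0.0039, adjusted 0.031) and rho = 0.59 (permutation p = 0.0083, adjusted 0.050), 0.50 without 2 arrays, and 0.66 and 0.43 within those sets of arrays. The cytosolic pairs Hspa1b with Hspb1 and Hspa1a with Dnajb1 had coefficients as high and did not pass by Pearson r. Each gave r = 0.62 (adjusted permutation p = 0.058 and 0.066). By Spearman rho 6 pairs passed, and Hspa1b with Hspb1 was among them (rho = 0.59, adjusted permutation p = 0.050). Hspa1a and Hspa1b, with their near-identical upstream windows, gave r = 0.12 (permutation p = 0.67, adjusted 0.84) and rho = 0.10 (permutation p = 0.70, adjusted 0.82). Within the arrays of lower and higher background their r was -0.02 and 0.48. All arrays share 1 normalization.

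**Figure D3:**
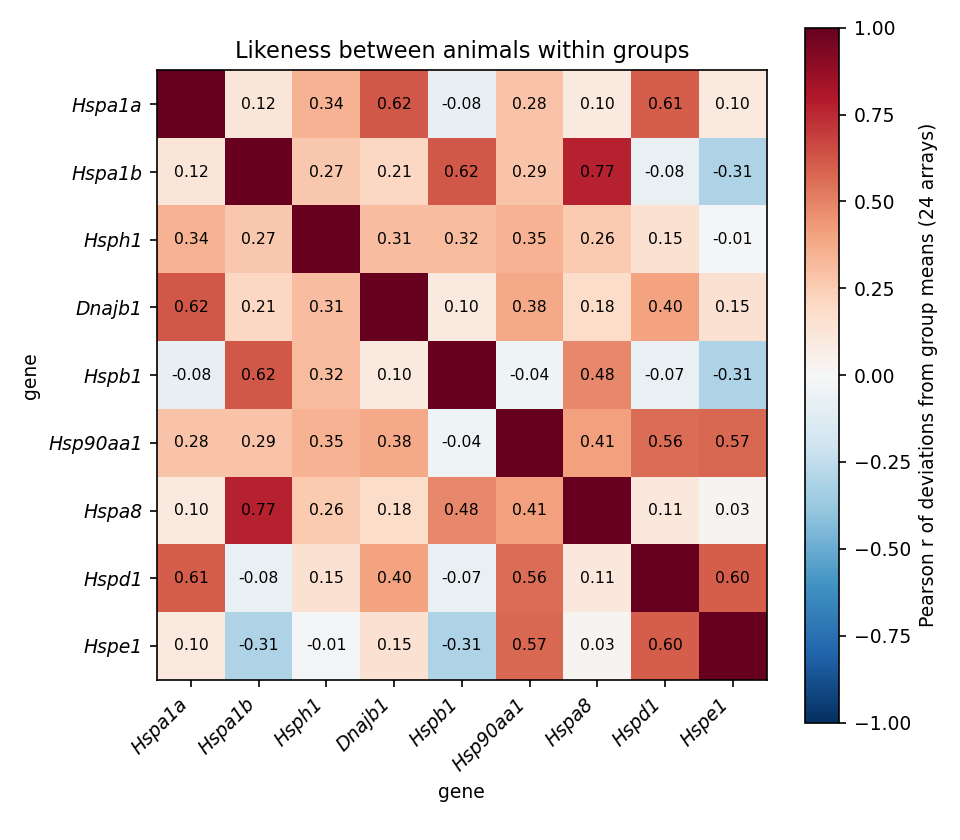
Pearson r between the 9 measured heat shock genes, computed on deviations from the group means over 24 arrays; each square is 1 pair. The highest square off the diagonal is Hspa1b with Hspa8 (0.77), and Hspa1a with Hspa1b is near 0 (0.12).

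Outside the list, the genes whose deviations were most like the mean standardised deviation of Hspa1a, Hspa1b, Dnajb1 and Hsph1 over the 24 arrays were Rangap1 (r = 0.83), Gar1 (0.78), Ehmt1 (0.75), Pelo (0.74) and Arf6 (0.74), of 12027 genes. Without the 2 arrays farthest from the median these were 0.77, 0.72, 0.63, 0.67 and 0.68. These are the top of a ranking and are given as a description.

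Partner genes of these chaperones were called in both directions, to be read against the 51.5% of all genes called in males and 48.3% in females; no list's share was tested against that background. Of 8 exchange factors and partners of HSP70, 1 was higher and 3 were lower in each sex. Bag2, which inhibits the HSP70-bound ubiquitin ligase encoded by Stub1, fell from 8.60 in wild-type males to 6.14 in mutant males (-2.45 ± 0.17, 5.48-fold, adjusted p = 4.0e-12) and from 8.02 to 6.07 in females (-1.94 ± 0.17, 3.85-fold, adjusted p = 3.8e-10). Stub1 was lower by 0.87 and 0.89 on the log2 scale, written as differences of -0.87 ± 0.10 and -0.89 ± 0.10 (adjusted p = 9.4e-08 and 6.6e-08). Bag3, the stress-induced co-chaperone of selective autophagy, had differences of -0.98 ± 0.12 and -0.62 ± 0.12 (adjusted p = 1.8e-07 and 0.00013). Hspbp1, an exchange factor, went the other way, 0.78 ± 0.10 in males (adjusted p = 7.7e-07) and 0.28 ± 0.10 in females (adjusted p = 0.030), with a called interaction of -0.50 ± 0.15 (adjusted p = 0.026). The median over the 8 was -0.04 in males and -0.12 in females.

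Of 14 HSP90 co-chaperones, 4 were higher and 6 lower in males, and 2 were higher and 2 lower in females, with medians of 0.06 and -0.11. Fkbp4, which carries steroid receptors on HSP90, was lower in both sexes, -0.62 ± 0.09 and -0.78 ± 0.09 (adjusted p = 1.4e-06 and 4.7e-08). Fkbp5, its glucocorticoid-induced counterpart, was lower in mutant males (-1.04 ± 0.13, adjusted p = 3.2e-07) with a called interaction of 1.28 ± 0.19 (adjusted p = 5.7e-05), its mean being 9.97 in wild-type males and 8.67 to 8.93 in the other groups. Unc45a, a myosin chaperone, was lower in both sexes (-0.41 ± 0.11 and -0.52 ± 0.11, adjusted p = 0.0029 and 0.00033). Against these, Ahsa1, which activates the HSP90 ATPase, was higher in both (0.32 ± 0.09 and 0.22 ± 0.09, adjusted p = 0.0047 and 0.043). The female difference of Cacybp was also higher (0.89 ± 0.25, adjusted p = 0.0052), and no difference between the sexes is claimed for it. Aarsd1 had a called interaction of -0.63 ± 0.12 (adjusted p = 0.00075), its mean being 8.21 in wild-type males and 8.61 to 8.76 in the other groups.

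Of 13 measured J-domain genes outside the endoplasmic reticulum, 2 were higher and 2 lower in males and 2 were higher and none lower in females. Dnajb6, a suppressor of aggregation, was higher in both, by 0.51 ± 0.07 and 0.29 ± 0.07 (adjusted p = 1.4e-06 and 0.0017), and Dnaja3, the mitochondrial HSP40, was lower in males (-0.28 ± 0.07, adjusted p = 0.0019). The Dnaja3 interaction was not called (adjusted p = 0.14). Of 5 other HSP70 and HSP110 genes measured, 1 was higher and 1 lower in males and 2 were higher in females. Hspa12b, a distant HSP70 relative known from endothelium, was 2.82-fold higher in mutant males (adjusted p = 8.9e-11) and 3.02-fold higher in mutant females (adjusted p = 3.0e-11). Hspa4l, a relative of Hsph1, was higher in mutant females (0.66 ± 0.16, adjusted p = 0.0012) with a called interaction of 0.81 ± 0.22 (adjusted p = 0.017), and Hspa9, the mitochondrial HSP70, was lower in males (-0.23 ± 0.09, adjusted p = 0.026). The Hspa9 interaction was not called (adjusted p = 0.21). Of 6 endothelial markers 2 were higher and 2 lower in males, and 3 were higher and 2 lower in females; their part in the Hspa12b values was not tested.

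Of 5 measured small heat shock genes other than Hspb1, 2 were higher and 1 lower in males and 1 was higher and 2 lower in females. Hspb8, the partner of Bag3, was higher in mutant males (1.14 ± 0.15, 2.20-fold, adjusted p = 7.4e-07), was higher in wild-type females than in wild-type males (1.04 ± 0.15, adjusted p = 1.4e-05), and had a called interaction of -0.88 ± 0.22 (adjusted p = 0.0080). Hspb6 was lower in both sexes (-0.47 ± 0.09 and -0.30 ± 0.09, adjusted p = 0.00015 and 0.0088), and Cryab was lower in females (-0.53 ± 0.18, adjusted p = 0.019). The Cryab interaction was not called (adjusted p = 0.40). Hspb3 was detected on no wild-type male array, 1 wild-type female array and 6 arrays of each mutant group, so it was kept through the mutants. Its calls, counted above, set mutant values against mostly undetected wild-type values. The share of all probes detected was also higher in the mutants, and its part in the Hspb3 values was not tested. In mutant males Hspb3 was at least 1.16-fold higher. This bound sets the mutant mean against the dimmest signal detected on the wild-type arrays.

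Of 12 mitochondrial chaperones and proteases, 3 were higher and 3 lower in males, and 1 was higher and 2 lower in females. Lonp1, the matrix protease, was lower in both sexes (-0.23 ± 0.09 and -0.54 ± 0.09, adjusted p = 0.033 and 2.3e-05), and Spg7, an inner membrane protease subunit, was higher in both (0.37 ± 0.14 and 0.73 ± 0.14, adjusted p = 0.030 and 0.00011). Of 13 measured subunits of the cytosolic chaperonin CCT and of prefoldin, 1 was higher and 3 lower in males and Cct6a alone was lower in females; Cct6a read -0.37 ± 0.08 and -0.26 ± 0.08 (adjusted p = 0.00059 and 0.011). Of the heat shock factor genes, Hsf2 and Hsf4 were measured and Hsf1 was not. Hsf2 was lower in males (-0.45 ± 0.14, adjusted p = 0.010), and Hsf4 was higher in females (0.42 ± 0.13, adjusted p = 0.0099). In males Hsf4 read 0.31 ± 0.13 (adjusted p = 0.051). Neither had a called interaction (adjusted p = 0.15 for Hsf2 and 0.73 for Hsf4). Hsbp1, which encodes a protein that binds heat shock factor 1, was called in neither sex.

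A pair of lists outside these families were set beside them. Among all genes 25% were called higher and 26.5% lower in males, and 22.8% higher and 25.5% lower in females. All 10 measured chaperones of the endoplasmic reticulum lumen were higher in mutants of both sexes, with medians of 1.64 and 1.76 on the log2 scale. Sdf2l1 differed most in males (3.15 ± 0.12, adjusted p = 4.2e-17) and Pdia4 had the smallest adjusted p in females (2.28 ± 0.10, adjusted p = 4.7e-16). The lumenal HSP70, Hspa5, and HSP90, Hsp90b1, rose by 1.99 ± 0.22 and 1.53 ± 0.10 in males (adjusted p = 2.5e-08 and 4.0e-12) and by 2.36 ± 0.22 and 1.84 ± 0.10 in females (adjusted p = 1.4e-09 and 9.6e-14). The cytosolic counterparts Hspa8 and Hsp90aa1 stood at 0.36 and 0.52 in males and -0.04 and 0.49 in females. Of 9 measured immediate early genes, which respond within minutes to stimulation or handling, 5 were higher and 2 lower in males and none was higher and 1 lower in females, with medians of 0.80 and 0.18. Fos was higher in mutant males (3.06 ± 0.63, adjusted p = 0.00025) and higher in wild-type females than in wild-type males (2.12 ± 0.63, adjusted p = 0.014). Wild-type males had the lowest mean of the 4 groups for 6 of these 9 genes (Fos, Jun, Junb, Dusp1, Egr1 and Atf3) and the highest for Egr2, Zfp36 and Fosb. Among the heat shock members they had the lowest mean for Hspa1b, Hsp90aa1, Hspa8 and Hspe1 and the highest for Hsph1, Dnajb1 and Hspb1. These ranks are an order of means. Between wild-type females and males, Jun and Fos alone of the immediate early genes were called, and Hspa8 and Dnajb1 alone of the members. Atf3 was detected on no wild-type male array and 1 wild-type female array, so its low rank and its male call rest on undetected values. The part of immediate early genes in the heat shock values was not tested.

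**Figure D4:**
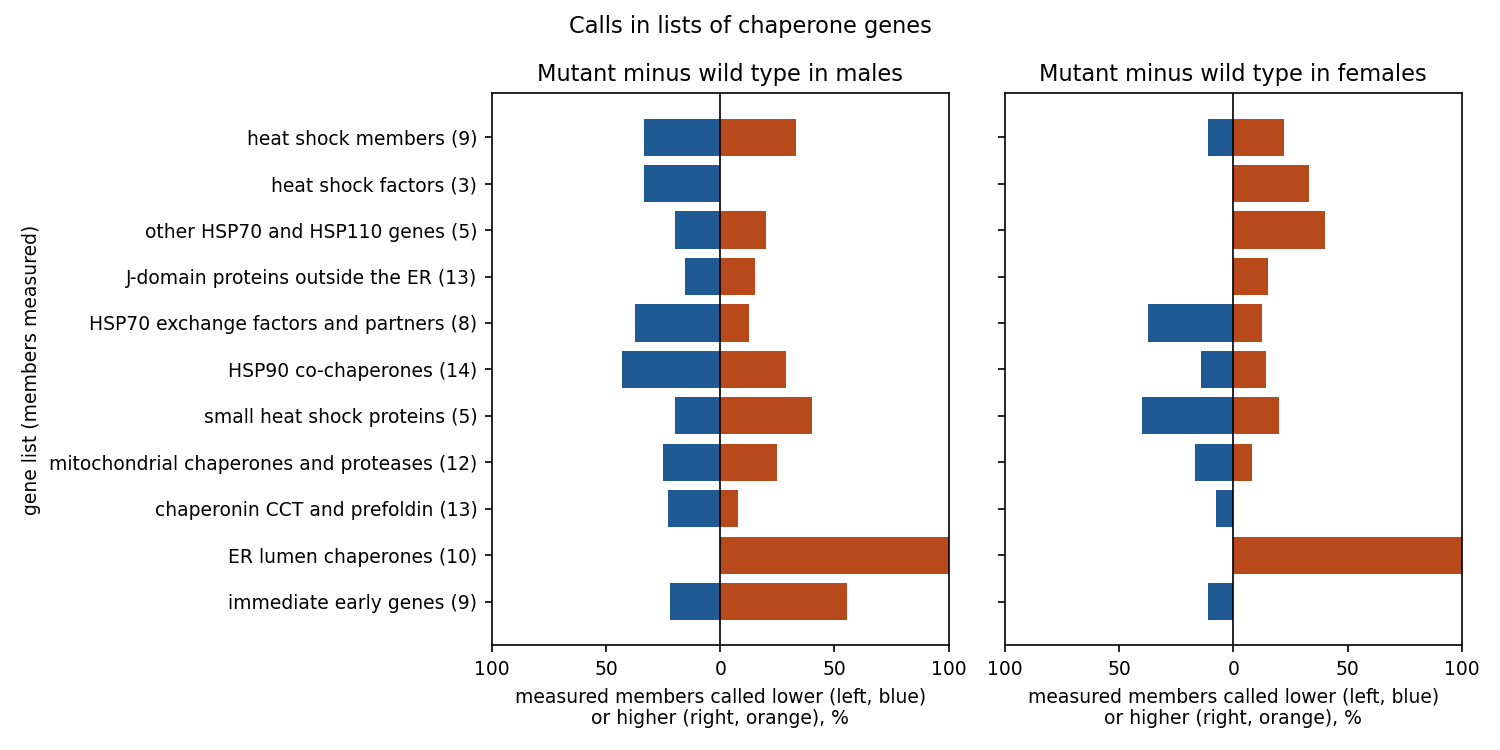
Percent of the measured genes of each list called lower (to the left) and higher (to the right) in mutants, for males and for females. The bars of the heat shock members point both ways, and those of the endoplasmic reticulum lumen list reach the full 10 of 10 genes to the right in both sexes.

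Calls among markers of other cells are to be read against the 51.5% of all genes called in males and 48.3% in females. No marker list's share was tested against that background. All 8 measured immune markers were higher in mutants of both sexes, and their summed intensity was 3191 to 4838 in wild-type against 8896 to 15120 in mutant males and 3913 to 6211 in wild-type against 7037 to 10557 in mutant females; Ptprc and Cd68 were not measured. Of 7 hormone cell markers 1 was higher and 2 lower in males and 1 was higher and 4 lower in females. Of 7 fibroblast and pericyte markers 2 were higher and 2 lower in males and 4 were higher and 2 lower in females. Of 4 folliculostellate and stem cell markers 1 was higher and 1 lower in males and 1 was lower in females. Of 4 posterior lobe markers 1, Oxt, was lower in each sex, and Avp, Gfap and Nkx2-1 were called in neither. The mean of Oxt was 8.54 in wild-type and 6.79 in mutant males, and 8.93 in wild-type and 6.48 in mutant females. The summed intensity of the 4, in which Oxt was the brightest in wild types, was 503 to 723 in wild-type against 234 to 497 in mutant males. In females it was 589 to 805 in wild types against 205 to 412 in mutants. Neither of 2 measured red blood cell markers was called for genotype, and both were lower in wild-type females than in wild-type males, as given above. The part of these cells in the values of Hspb1, Hsp90aa1 and the other members was not tested.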

How the data were processed

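Probe intensities with detection p-values and bead counts, deposited by the authors, were read by GenomeStudio 2011.1 per the submitters' processing notes and are not normalized per the file headers. The deposited log2 analysis starts from these intensities; the authors' processed table, whose normalization no source used here states, ranked probes on each array as the raw intensities did and served as an alternative. The probes' genome build is likewise not given in the sources used here; 24 bead error columns were not used. With limma 3.58.1 in R 4.3.3, neqc corrected background (offset 16) and quantile-normalized log2 values. Probes with detection p under 0.05 on at least 6 arrays were kept (23133 of 45281; 12027 genes). Of all probes 34885 had 1 symbol, 18 several and 10378 none, and 34807 matched RefSeq by gene ID. lmFit and eBayes fitted 4 group means over all 24 arrays. Groups came from the titles. Correlations used Python 3.11.15. In simulated data of 12027 genes with independent normal noise, 100 genes differed by 0.5 and 100 by 1 on the log2 scale in mutant males. Of these 67% and 97% were recovered in the male comparison, at 6 false calls. Far fewer genes changed there than the 51.5% called in males. The adjusted threshold therefore differs, and these shares do not give the recovery in the data. Precision is limited by the number of arrays. All 10 members are named with all their probes; from each partner list up to 4 genes of smallest adjusted p, and any opposing one, were eligible to be named. Members and lists were chosen with earlier results of these data known. The alternatives were another normalization, background offset and filter, the mean of a gene's probes, array weights, raw background as a block or split, another eBayes setting, the groups of a comparison alone, and each array left out in turn.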

Additional observations from a re-analysis of the deposited data

Results flagged for a closer look

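Of 56 sets of 6 arrays, one for each kept probe in each group, 3 held an array far from the other 5 by Dixon's test, which chance flags in about 1 set of 20. Dnajb1 read 11.72 on the sixth wild-type male array and 11.83 to 11.89 on the others. The second Hspd1 probe read 10.02 on the third mutant male array and 10.38 to 10.52 on the others, and Hspe1 read 9.17 on that array and 9.54 to 9.76 on the others. The mutant effect on Hspa1a differed between the sexes by 0.95 (female minus male, adjusted p = 0.021 by the limma interaction term).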

How the results depend on the processing

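Of 1974 member differences recomputed under the alternatives, 1879 kept their direction and their side of the threshold, 38 lost a call, 27 gained one, 30 changed sign without a call, and 0 were called with the other sign. Members called in males, 6, were 1 over the arrays of lower raw background and 3 over those of higher background; in females, 3, they were 0 over the arrays of lower background, and averaged over the sexes, 6, they were 2. These sets hold 3 arrays per group, so fewer samples enter, and they coincide with the order of the sample numbers. The member interaction, 1, rose to 2 with scaling to the 75th percentile, where Hspa8 joined, and was 0 with detection p under 0.01 on all arrays, which leaves Hspa1a untested, 0 with the mean of a gene's probes, and 0 over the arrays of lower background. Members differing by sex in wild types, 2, were 4 with array weights and 0 and 0 in the lower and higher background sets. Member probes called in females, 5, were 3 with no filter on dim probes. Leaving out 1 array gave 3 to 5 members in females, where 5 came without the third mutant female array, 1 to 2 for the interaction and 1 to 4 for sex in wild types. Genes called over the whole array were 3995 in males, 3839 in females, 4786 averaged, 1038 for the interaction, 2089 for sex in wild types and 1 for sex in mutants under the stricter filter, which tests fewer genes (7994). They were 4014, 3611, 185, 1409 and 4 over the arrays of lower background (without the average) and 4073, 3676, 311, 979 and 3 over those of higher background, and 2 for sex in mutants with those groups alone. No paired analysis was possible because the labels number the samples singly. Probes near background and the bright Hspa8 probes limit what intensity can show.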
